A study of Mus musculus with 23 samples.

Results

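Genes of the tumour necrosis factor (TNF) ligand and receptor superfamilies were followed in 2 sorted cell fractions of a mouse breast tumour. The members are all symbols of the count table that begin with Tnfsf or Tnfrsf and a number, apart from Tnfrsf25. This gave 31 of 48397 symbols, namely 11 ligand genes, 19 receptor genes and Tnfsf13os, an antisense transcript at the Tnfsf13 locus. The cells came from Met1-iRFP breast tumours of FVB mice, and were sorted by iRFP, a near-infrared fluorescent protein. Cells that carry iRFP are labelled cancer cells, and cells without it are labelled tumour microenvironment (TME) cells, which takes in leukocytes, vessels and connective tissue. The mice are labelled sedentary or exercise. The 23 libraries are 8 from cancer cells of sedentary mice, 7 from cancer cells of exercised mice, and 4 from the TME sort of either treatment. All 4 groups share the tumour line, the strain and the fluorescent marker, and no other allele or agent is named. Met-1 is 1 line, derived from an MMTV-PyMT mammary tumour, so the groups describe that line only. The sources used here do not give the age of the mice, the kind and length of the exercise or any pooling of animals.

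TNF ligands are trimers on the cell surface or in solution that cluster their receptors. Some receptors carry a death domain and can start apoptosis or necroptosis, whereas others bind TRAF adaptors and switch on NF-kB. Decoy receptors bind a ligand without passing on a death signal. In tumours the family is known for the death ligand TRAIL (Tnfsf10), for costimulation of T cells, for the survival of B cells, and for RANK signalling in mammary epithelium.

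The receptors that stood higher in cancer cells include a pair of decoy receptors for TRAIL with similar coding exons, so their sequences are shown first. Tnfrsf22 (chromosome 7, 143634806 to 143649661, GRCm38, GENCODE M21) and Tnfrsf23 (chromosome 7, 143665809 to 143685872) are neighbours on the minus strand. Over coding exons 2 to 5 they share 372 of 406 bases (91.6%), and exon 5 is identical. In exon 3, 121 of 129 bases are shared (93.8%), and capitals mark the bases that differ.
Tnfrsf22 coding exon 3, chr7:143643276-143643404, minus strand: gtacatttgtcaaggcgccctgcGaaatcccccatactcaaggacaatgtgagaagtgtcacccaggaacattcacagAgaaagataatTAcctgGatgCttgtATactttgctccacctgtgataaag
Tnfrsf23 coding exon 3, chr7:143679945-143680073, minus strand: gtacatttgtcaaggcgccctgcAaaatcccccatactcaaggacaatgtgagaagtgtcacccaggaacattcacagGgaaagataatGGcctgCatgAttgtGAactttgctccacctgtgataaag
For each gene 1 transcript was cut into all its windows of 50 bases. Of 4121 windows in the Tnfrsf22 transcript 10.3%, and of 1427 in the Tnfrsf23 transcript 29.9%, also occur in the other. The exons of Tnfrsf23 hold 3962 bases in all, so the 29.9% describes that shorter transcript and not the whole gene. Reads from these stretches cannot be assigned to 1 of the genes, so the counts of both are uncertain.

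Promoters are shown for 1 gene that was higher and 3 genes that were lower in cancer cells. The 250 bases before the start were read from RefSeq (GRCm38.p6), where 23 of the 31 members matched. Capitals mark matches to 5 motifs searched on both strands, namely TGANTCA (AP-1), GAGGAA (the core bound by PU.1, a factor of myeloid cells), TTTC, 2 bases of any kind and TTTC (the interferon-stimulated response element), TATAAA (the TATA box) and the NF-kB consensus.
Tnfrsf23, chr7:143685876-143686125, minus strand: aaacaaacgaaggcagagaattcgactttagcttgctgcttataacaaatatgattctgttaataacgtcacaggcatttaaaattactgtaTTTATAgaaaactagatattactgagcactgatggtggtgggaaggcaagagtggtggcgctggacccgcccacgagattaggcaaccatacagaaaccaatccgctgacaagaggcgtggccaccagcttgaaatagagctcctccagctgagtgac
Tnfrsf1b, chr4:145246871-145247120, minus strand: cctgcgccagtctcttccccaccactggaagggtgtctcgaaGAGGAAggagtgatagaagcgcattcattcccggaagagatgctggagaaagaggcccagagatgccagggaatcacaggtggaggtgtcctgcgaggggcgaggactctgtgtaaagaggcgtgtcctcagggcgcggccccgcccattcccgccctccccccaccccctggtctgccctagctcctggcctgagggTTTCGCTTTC
Tnfsf14, chr17:57194182-57194431, minus strand: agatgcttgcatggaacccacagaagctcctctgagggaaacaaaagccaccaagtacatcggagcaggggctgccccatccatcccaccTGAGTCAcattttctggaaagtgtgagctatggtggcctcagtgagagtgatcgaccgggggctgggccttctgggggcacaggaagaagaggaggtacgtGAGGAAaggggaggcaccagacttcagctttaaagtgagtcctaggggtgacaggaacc
Tnfsf13b, chr8:10006217-10006466, plus strand: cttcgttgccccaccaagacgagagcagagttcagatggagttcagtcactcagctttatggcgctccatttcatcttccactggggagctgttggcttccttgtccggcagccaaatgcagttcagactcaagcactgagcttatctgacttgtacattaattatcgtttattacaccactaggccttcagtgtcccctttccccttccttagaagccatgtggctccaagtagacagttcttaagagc
The Tnfrsf23 window holds a TATA match on the opposite strand, 158 to 153 bases before the start. The Tnfrsf1b window holds the PU.1 core at 208 to 203 and the interferon-stimulated element in the last 10 bases. The Tnfsf14 window holds the AP-1 motif, a palindrome that reads on both strands, at 160 to 154 and the PU.1 core at 59 to 54. The Tnfsf13b window holds none of the 5. It is 1 of 2 start sites that RefSeq lists for that gene, and AP-1 and the interferon-stimulated element were found before the other. Counted over all listed starts of a gene, the PU.1 core was in 8 of 23 member genes (34.8%) and in 23.3% of 32851 RefSeq promoters. The first share counts genes, some with 2 starts, and the second counts single promoters, so the 2 are unlike measures, here and for the motifs that follow. AP-1 was in 5 (21.7%, all promoters 6.75%), the interferon-stimulated element in 4 (17.4%, all 2.98%), the TATA box in 4 (17.4%, all 12.4%) and the NF-kB consensus in 2, Tnfrsf8 and Tnfrsf9 (8.70%, all 7.25%). No 2 different motifs overlapped in the windows shown, and a match describes letters only.

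Total counts ran from 15924340 to 37388479 per library. The mitochondrial share of counts was 42.2% in library 4 and 14.5% in library 6 of sedentary TME cells. It was 2.61% to 8.63% for the rest of the TME sort and 1.86% to 3.90% for the cancer sort. Levels are given as CPM, counts scaled to the size of each library. The 6 pan-leukocyte markers summed to 12.0 to 78.8 CPM in cancer libraries and 205 to 1321 in TME libraries, and all 6 were lower in cancer cells in both treatments. The highest sums were in exercised TME libraries 8 (1202) and 9 (1321). Sedentary TME library 4 had the highest summed endothelial markers, 322 CPM, where the remaining TME libraries had 30.2 to 83.0. Of 5 epithelial markers 4 were tested, and Cdh1 was lower in cancer cells in both treatments. Wfdc2 averaged 331 ± 61.8 CPM (SD, n = 8) in sedentary cancer cells and 361 ± 78.9 (n = 4) in sedentary TME cells, while Epcam and Krt8, which define epithelium, averaged under 2 CPM in every group. Krt18, an epithelial keratin, averaged 92.6 ± 18.1 and 70.9 ± 14.3 CPM in sedentary and exercised cancer cells (n = 8 and 7) and 74.0 ± 20.2 and 54.6 ± 20.7 in TME cells (n = 4 each), and was not called. No epithelial marker tested was thus called higher in the cells labelled cancer, though the means of Krt18 were higher there. Epcam was not called between the sorts, and Krt8 was too low to test. Values of TME libraries follow in the order 4, 6, 9 and 10 for sedentary mice and 7, 8, 9 and 10 for exercised mice.

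Cancer and TME cells were compared first, to see in which sort each ligand and receptor was higher. Not all fibroblast markers separated the sorts. In sedentary and exercised mice the mean cancer level was 118% and 127% of the TME level for Pdgfra, and 7.87% and 7.59% for Col1a1. A gene not called between the sorts is therefore not placed in a compartment. The death receptor gene for TRAIL (Tnfrsf10b) and the decoy genes Tnfrsf22 and Tnfrsf23 were higher in cancer cells in both treatments. Among the genes higher in TME cells in both were the ligands Tnfsf14, Tnfsf12 and Tnfsf13b and the receptors Tnfrsf11b, Tnfrsf13b, Tnfrsf11a and Tnfrsf1b. In sedentary mice 15 of 29 tested members differed, against 40.8% of 17503 genes. Of these 3 were higher in cancer cells, where 21% of genes were, and 12 were lower, where 19.8% of genes were (edgeR quasi-likelihood test, Benjamini-Hochberg adjusted over all genes, threshold 0.05). In exercised mice 17 differed (36.9% of genes), with 4 higher (19.5%) and 13 lower (17.3%). Of the members, 3 were higher in both treatments (15% of genes) and 11 were lower in both (13.2%). These 11 are 4 ligands and 7 receptors. The lowest level of 1 sort was above the highest of the other for 2 members higher and 10 lower in cancer cells of sedentary mice (10.7% and 10.2% of genes) and for 3 and 10 in exercised mice (13.8% and 11%). No ligand was higher in cancer cells in either treatment. The median log2 difference, cancer minus TME, was -0.25 for the members tested and 0.01 for all genes in sedentary mice, and -0.62 and 0.00 in exercised mice. Tnfsf14, at 0 counts in cancer cells, has the lowest sedentary value of the members, so setting it to its bound cannot move their median. A filter on low counts bears on this reading. Tnfrsf11b, Tnfrsf13b, Tnfsf11, Tnfsf12, Tnfsf13b, Tnfsf14, Tnfsf4 and Tnfsf8 passed it over all libraries but not over cancer libraries alone, so they were tested through TME cells, and 6 of these 8 are among the 12 lower members in sedentary mice and 7 among the 13 in exercised mice. They include every ligand member called lower in either treatment, so the ligand calls rest wholly on genes that were tested through TME cells. All 8 stood below 0 in both treatments and also enter the medians of the members. The shares and medians of all genes are therefore no fair measure for the members. Libraries of both sorts share replicate numbers. In exercised mice the deviations of the 3 pairs with the same number correlated at 0.144 to 0.243. That does not show pairing, since TME libraries 9 of opposite treatments reached 0.235. With that number as a block, 7 members were lower in place of 13 and 3 higher in place of 4. That block leaves the exercised contrast to libraries 7, 8 and 10 of each sort, and calls lost with it are given beside each gene.

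**Figure D1:**
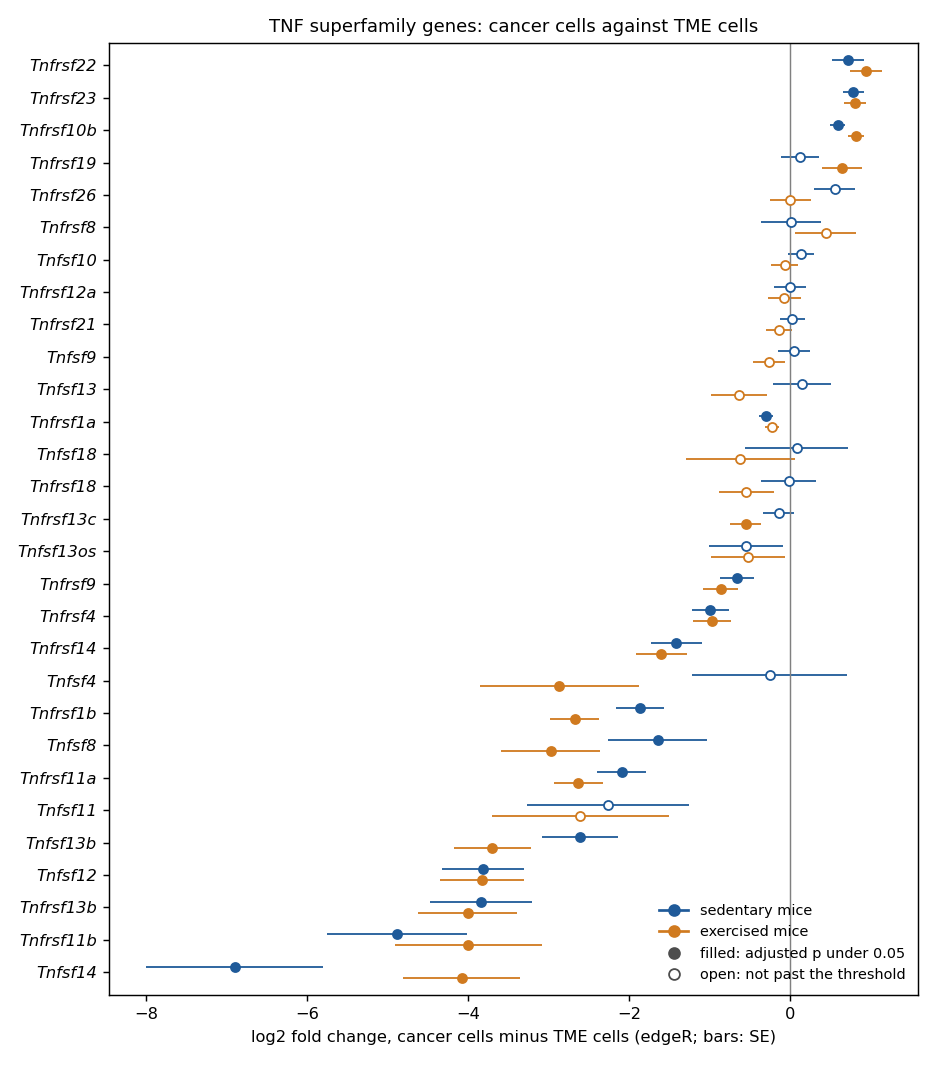
Log2 fold change of cancer minus TME cells for the 29 tested members, in sedentary (blue) and exercised (orange) mice, with bars for the standard error and filled points for an adjusted p under the threshold. Tnfrsf10b, Tnfrsf22 and Tnfrsf23 have filled points above 0 in both treatments, and 11 members have filled points below 0 in both; the sedentary value of Tnfsf14 rests on cancer libraries that are all at 0 counts and is no measured size.

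Tnfrsf10b encodes the mouse TRAIL death receptor. Its level was 72.4 to 99.2 CPM (median 80.2) in the 8 sedentary cancer libraries and 81.8 to 101 (median 92.7) in the 7 exercised ones. It was 45.0, 57.4, 59.7 and 54.9 CPM in sedentary TME libraries. In exercised TME libraries it was 58.9, 47.8, 51.9 and 48.8 CPM. Every cancer library lay above every TME library. The difference was 0.60 ± 0.10 log2 in sedentary (adjusted p = 2.04e-05) and 0.82 ± 0.10 in exercised mice (adjusted p = 2.61e-07).

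Tnfrsf23, a decoy receptor, had 33.1 to 43.6 CPM (median 39.6) in sedentary and 30.8 to 45.6 (median 37.9) in exercised cancer libraries. The sedentary TME libraries had 25.0, 24.2, 21.5 and 17.7 CPM, and exercised TME libraries had 27.3, 15.5, 19.1 and 24.0. The Tnfrsf23 ranges did not overlap, and the differences were 0.79 ± 0.13 (adjusted p = 3.23e-05) and 0.82 ± 0.14 (adjusted p = 2.45e-05). Tnfrsf22, the other decoy gene, had 13.7 to 21.4 CPM (median 17.4) and 16.9 to 24.9 (median 17.9) in sedentary and exercised cancer libraries. In TME cells of sedentary mice there were 18.1, 8.87, 8.88 and 7.19 CPM of Tnfrsf22, and exercised TME libraries had 13.7, 9.64, 9.34 and 8.29. Sedentary TME library 4, the library with 42.2% mitochondrial counts, lay inside the cancer range for Tnfrsf22, and the other 7 TME libraries lay at or below 13.7 CPM. Tnfrsf22 differed by 0.73 ± 0.20 (adjusted p = 0.00394) and 0.95 ± 0.20 (adjusted p = 0.000412), and by 1.06 in sedentary mice without TME libraries 4 and 6. Their neighbour Tnfrsf26 did not pass in either treatment (0.56 ± 0.26, adjusted p = 0.0828, and 0.01 ± 0.25). Tnfrsf19, an orphan receptor of Wnt-responsive epithelium, passed in exercised mice alone (0.65 ± 0.25, adjusted p = 0.0408) and lost its call in 17 of 31 alternative analyses, the replicate block among them (edgeR adjusted p = 0.247).

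TRAIL itself was not called between the sorts in either treatment. Tnfsf10 had 12.4 to 23.3 CPM (median 16.2) in sedentary cancer libraries and 14.7 to 25.8 (median 22.0) in exercised ones, and all TME libraries lay between 11.9 and 23 CPM. Its differences were 0.14 ± 0.16 (adjusted p = 0.528) and -0.06 ± 0.16 (adjusted p = 0.811). Of the TRAIL system, the receptor genes passed the test between the sorts and the ligand did not.

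**Figure D2:**
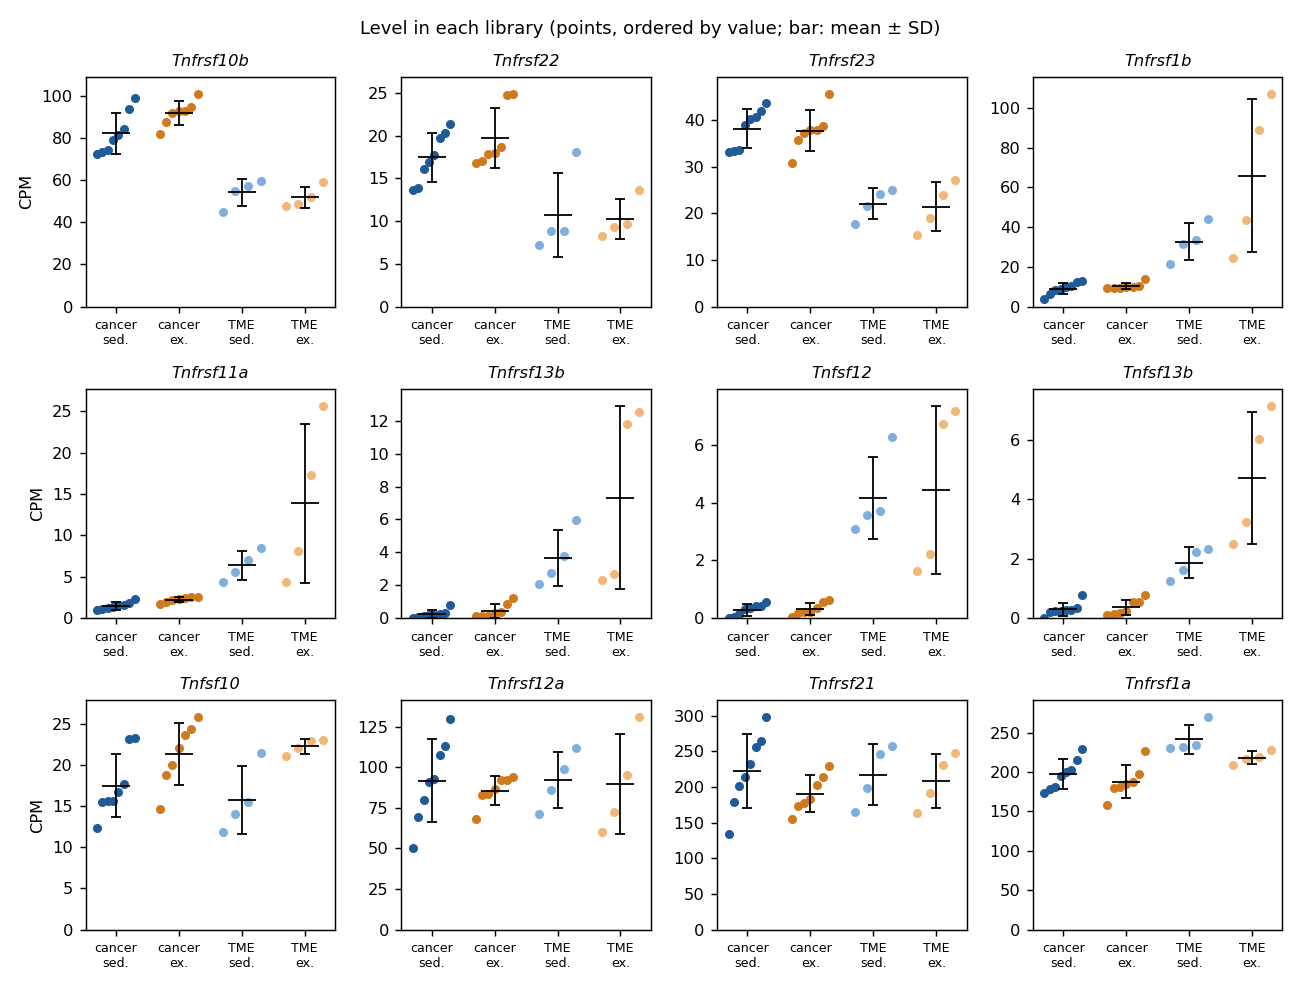
CPM of 12 members in each library, by group (sed., sedentary; ex., exercised), with points ordered by value and bars for the mean ± SD; each axis starts at 0. Tnfrsf10b and Tnfrsf23 lie higher in all cancer libraries, and exercised TME libraries 8 and 9 are the high pair for Tnfrsf1b, Tnfrsf11a, Tnfrsf13b, Tnfsf12 and Tnfsf13b.

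Among the ligands, Tnfsf12, Tnfsf13b, Tnfsf14 and Tnfsf8 were lower in cancer cells in both treatments. Tnfsf12 encodes TWEAK, a ligand of macrophages that acts on Tnfrsf12a. It had 0 to 0.574 CPM (median 0.336) in sedentary and 0.0388 to 0.620 (median 0.221) in exercised cancer libraries. In sedentary TME libraries there were 6.27, 3.09, 3.69 and 3.57 CPM of Tnfsf12, and exercised TME libraries had 1.62, 6.73, 7.16 and 2.22. The ranges did not overlap, with differences of -3.81 ± 0.51 (adjusted p = 1.93e-06) and -3.83 ± 0.53 (adjusted p = 2.00e-06). The annotation has a read-through gene, Tnfsfm13, that shares 48.3% of the exon bases of Tnfsf12 and 60.0% of those of Tnfsf13. Reads there may be lost or split, so levels of Tnfsf12 and Tnfsf13 are uncertain. Tnfrsf12a, the receptor of TWEAK, was abundant in both sorts, with 50.2 to 130 CPM (median 91.8) and 68.0 to 94.1 (median 86.6) in cancer libraries. In TME libraries Tnfrsf12a ran from 60.3 to 131 CPM, and its differences were 0.00 ± 0.20 and -0.07 ± 0.20 (adjusted p = 0.999 and 0.834).

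Tnfsf13b encodes BAFF, the survival factor of B cells that myeloid cells make. Cancer libraries had 0 to 0.784 CPM (median 0.259) in sedentary and 0.116 to 0.772 (median 0.248) in exercised mice. The sedentary TME libraries had 2.34, 1.24, 2.23 and 1.61 CPM of Tnfsf13b, and exercised TME libraries had 3.24, 7.14, 6.02 and 2.48. The groups did not overlap, and the differences were -2.60 ± 0.48 (adjusted p = 8.02e-05) and -3.70 ± 0.48 (adjusted p = 6.59e-07). Tnfrsf13b encodes TACI, a receptor of BAFF and APRIL on B cells and myeloid cells, and it was also lower in cancer cells. It had 0 to 0.830 CPM (median 0.178) and 0.103 to 1.24 (median 0.325) in cancer libraries. In TME cells of sedentary mice there were 5.99, 2.05, 3.80 and 2.77 CPM of Tnfrsf13b, and exercised TME libraries had 2.32, 12.5, 11.8 and 2.70. Its differences were -3.83 ± 0.63 (adjusted p = 4.08e-05) and -4.00 ± 0.62 (adjusted p = 1.67e-05). The 4 B cell markers together stayed between 0.0936 and 1.61 CPM in TME libraries, below the level of Tnfrsf13b in each of them. The BAFF receptor Tnfrsf13c was not concentrated in TME cells, at 3.63 to 5.83 CPM (median 4.67) and 2.61 to 4.88 (median 3.67) in cancer libraries against 4.29 to 7.30 in TME libraries. Its difference of -0.55 ± 0.20 in exercised mice passed (adjusted p = 0.0295, and 0.0944 with the replicate block) and that of -0.14 ± 0.20 in sedentary mice did not. Tnfrsf17, the plasma cell receptor of the same ligands, had no count in any cancer library and 7 and 11 counts in all in sedentary and exercised TME libraries. All 7 came from sedentary library 6, and the 11 came from exercised libraries 8 and 9, so the counts rest on 3 libraries. The filter left Tnfrsf17 untested. APRIL, from Tnfsf13, did not pass (0.15 ± 0.36 and -0.63 ± 0.35).

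Tnfsf14 encodes LIGHT, a ligand that acts on Tnfrsf14 and on the lymphotoxin beta receptor. All 8 sedentary cancer libraries had 0 counts of it, and exercised cancer libraries had 0 to 0.310 CPM (median 0.0388), 17 counts in all. In sedentary TME libraries there were 0.187, 0.883, 0.770 and 0.536 CPM of Tnfsf14, and exercised TME libraries had 0.773, 2.43, 2.59 and 1.46. A count of 0 allows 3 counts over a group, for counting error only. The mean of sedentary TME cells was 34.0-fold the level of these 3 counts, a value that leaves out the spread of the TME libraries. Separately, the edgeR test called Tnfsf14 lower in sedentary cancer cells (adjusted p = 4.25e-05). In exercised mice the difference was -4.08 ± 0.73 (adjusted p = 0.000137), and with the replicate block it was -3.69 and missed the threshold (adjusted p = 0.0513). Its receptor Tnfrsf14, HVEM, was also lower in cancer cells. It had 0.868 to 2.40 CPM (median 1.36) and 1.12 to 2.19 (median 1.99) in cancer libraries and 2.28 to 8.12 in TME libraries, with differences of -1.41 ± 0.32 (adjusted p = 0.000764) and -1.60 ± 0.32 (adjusted p = 0.000215). Tnfrsf14 lost the first call without sedentary TME libraries 4 and 6 (-0.90) and the second without exercised TME libraries 8 and 9 (-0.84) and with the replicate block (-0.99, adjusted p = 0.193).

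Tnfsf8, the ligand of CD30 (Tnfrsf8), a receptor of activated lymphocytes, had 0.0956 to 0.851 CPM (median 0.234) and 0.0517 to 0.610 (median 0.278) in cancer libraries. The sedentary TME libraries had 0.842, 0.803, 2.05 and 0.134 CPM of Tnfsf8, and exercised TME libraries had 0.405, 4.36, 4.69 and 1.20. The groups overlapped in both treatments, with differences of -1.64 ± 0.62 (adjusted p = 0.0345) and -2.97 ± 0.61 (adjusted p = 0.000311). The first call was lost without sedentary TME library 9 (-0.89) and without each of sedentary cancer libraries 3, 4, 5, 9 and 10. It was also lost without sedentary TME libraries 4 and 6 (-1.89), by limma voom (-1.20, adjusted p = 0.281) and with the replicate block (-1.27, edgeR adjusted p = 0.229). The second call was lost without exercised TME libraries 8 and 9 (-1.29, edgeR adjusted p = 0.219) and with the replicate block (-2.58, edgeR adjusted p = 0.0521). Tnfrsf8 did not pass (0.02 ± 0.37 and 0.45 ± 0.38), with 0.374 to 1.79 CPM over all libraries.

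Receptor genes lower in cancer cells were led, by the mean of both treatments, by Tnfrsf11b and by Tnfrsf13b, described above, followed by Tnfrsf11a and Tnfrsf1b. Tnfrsf11b encodes osteoprotegerin, a secreted decoy for RANKL. In cancer cells it had 0 counts in 6 of 8 sedentary and 5 of 7 exercised libraries and at most 0.306 CPM. In TME cells of sedentary mice there were 4.49, 0.642, 0.949 and 1.65 CPM of Tnfrsf11b, and exercised TME libraries had 1.10, 0.442, 1.32 and 0.975. Its differences were -4.88 ± 0.87 (adjusted p = 6.58e-05) and -4.00 ± 0.91 (adjusted p = 0.000927), and -4.40 in sedentary mice without TME libraries 4 and 6. Tnfrsf11a encodes RANK, the receptor that osteoprotegerin competes with. It had 0.968 to 2.37 CPM (median 1.45) in sedentary and 1.67 to 2.58 (median 2.28) in exercised cancer libraries. In sedentary TME libraries there were 5.52, 7.06, 8.44 and 4.42 CPM of Tnfrsf11a, and exercised TME libraries had 4.34, 17.3, 25.7 and 8.11. All TME libraries lay above all cancer libraries, with differences of -2.09 ± 0.30 (adjusted p = 4.99e-06) and -2.63 ± 0.31 (adjusted p = 1.59e-07). Their ligand gene Tnfsf11 (RANKL) was scarce, from 0 to 1.16 CPM over all libraries, and did not pass (-2.26 ± 1.01, adjusted p = 0.0753, and -2.60 ± 1.10, adjusted p = 0.0655), though limma voom called it in both treatments (-3.80 and -2.72).

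The TNF receptors differed in their distribution. Tnfrsf1b, the receptor without a death domain that leukocytes and endothelium carry, had 3.78 to 12.7 CPM (median 9.37) in sedentary and 9.17 to 14.1 (median 9.67) in exercised cancer libraries. The sedentary TME libraries had 21.4, 43.9, 33.6 and 31.6 CPM of Tnfrsf1b, and exercised TME libraries had 24.3, 88.6, 107 and 43.4. No TME library overlapped the cancer range, and the differences were -1.86 ± 0.30 (adjusted p = 4.19e-05) and -2.67 ± 0.31 (adjusted p = 6.42e-07). Tnfrsf1a, the death domain receptor of TNF, was high in all groups. It had 173 to 229 CPM (median 198) and 158 to 226 (median 184) in cancer libraries, 230, 231, 235 and 269 CPM in sedentary TME libraries, and 209 to 228 in exercised TME libraries. Tnfrsf1a was lower in cancer cells by a small margin in sedentary mice (-0.29 ± 0.09, adjusted p = 0.00847), and in exercised mice it missed the threshold (-0.22 ± 0.09, adjusted p = 0.0583) but passed in 14 of 31 alternative analyses.

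Costimulatory receptors of T cells showed smaller differences. Tnfrsf4 (OX40) differed by -0.98 ± 0.23 and -0.96 ± 0.24 (adjusted p = 0.00130 and 0.00192), and Tnfrsf9, the receptor of Tnfsf9, by -0.65 ± 0.21 and -0.86 ± 0.21 (adjusted p = 0.0150 and 0.00216). Tnfrsf4 had 1.38 to 3.93 CPM in cancer and 3.64 to 7.30 in TME libraries. Tnfrsf9 had 4.65 to 9.62 CPM in cancer and 7.57 to 16.5 in TME libraries, lost its sedentary call without TME library 4 (-0.55) or libraries 4 and 6 (-0.34) and lost its exercised call without TME libraries 8 and 9 (-0.63), as Tnfrsf4 did (-0.71). With the replicate block the exercised call of Tnfrsf9 was lost too (-0.53, adjusted p = 0.242). Tnfrsf18 (GITR) did not pass in either treatment, with 0.670 to 3.13 CPM over all libraries, nor did its ligand Tnfsf18. The OX40 ligand gene Tnfsf4 passed in exercised mice only (-2.86 ± 0.99, adjusted p = 0.0233), on 9 counts over the cancer group and 55 over the TME group, and lost its call without exercised TME library 8 or 9 and with the replicate block (adjusted p = 0.439). Tnfsf9, the ligand of Tnfrsf9, was among the more abundant ligands and did not pass (0.05 ± 0.20 and -0.25 ± 0.20). Whether any effect differed between sedentary and exercised mice is tested by the contrast of exercise effects given after the exercise results.

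Exercised TME libraries 8 and 9 had the highest leukocyte markers and also the highest levels of Tnfrsf1b, Tnfrsf11a, Tnfrsf13b, Tnfsf8, Tnfsf12, Tnfsf13b and Tnfsf14 of all libraries. Without both, the exercised differences were -1.76 for Tnfrsf1b, -1.52 for Tnfrsf11a, -2.50 for Tnfrsf13b, -2.66 for Tnfsf12, -3.02 for Tnfsf13b and -3.42 for Tnfsf14, each still past the threshold, and the count of lower members was 8 in place of 13. For the genes higher in cancer cells they were 0.73 (Tnfrsf10b), 0.80 (Tnfrsf22) and 0.52 (Tnfrsf23), also past it. Removal of these libraries was chosen after the data were seen. The distance from cancer to TME level can also be set beside that of marker genes. In sedentary and exercised mice, the mean cancer level was 6.88% and 7.05% of the TME level for Tnfsf12, 6.65% and 6.17% for Tnfrsf13b, 15.9% and 7.63% for Tnfsf13b, 23.4% and 16.2% for Tnfrsf11a and 27.7% and 15.7% for Tnfrsf1b. It was 0% and 5.63% for Tnfsf14, 3.08% and 5.93% for Tnfrsf11b and 33.2% and 12.5% for Tnfsf8. For Tnfrsf14 it was 36.8% and 33.2%, for Tnfrsf4 50.4% and 51.3%, and for Tnfrsf9 63.3% and 55.3%. For pan-leukocyte markers it ran from 4.92% (Coro1a) to 14.8% (Ptprc) in sedentary and from 4.32% (Cd52) to 5.95% (Cd53) in exercised mice. For endothelial markers it ran from 1.97% (Tie1) to 12.8% (Cdh5) in sedentary and from 2.50% (Cldn5) to 20.9% (Cdh5) in exercised mice. For fibroblast markers it ran from 7.28% (Lum) to 118% (Pdgfra) in sedentary and from 7.59% (Col1a1) to 127% (Pdgfra) in exercised mice. For the epithelial markers it was 125% and 130% (Krt18), 97.9% and 93.1% (Epcam), 91.7% and 101% (Wfdc2), 81.5% and 153% (Krt8) and 19.3% and 10.7% (Cdh1). Those markers thus had no common direction. For Tnfrsf10b it was 152% and 177%, for Tnfrsf22 163% and 193%, and for Tnfrsf23 173% and 176%. In bulk samples a smaller number of cells of a type and less RNA in each cell cannot be told apart. The part of leukocyte, endothelial or fibroblast content in these differences was not tested.

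**Figure D3:**
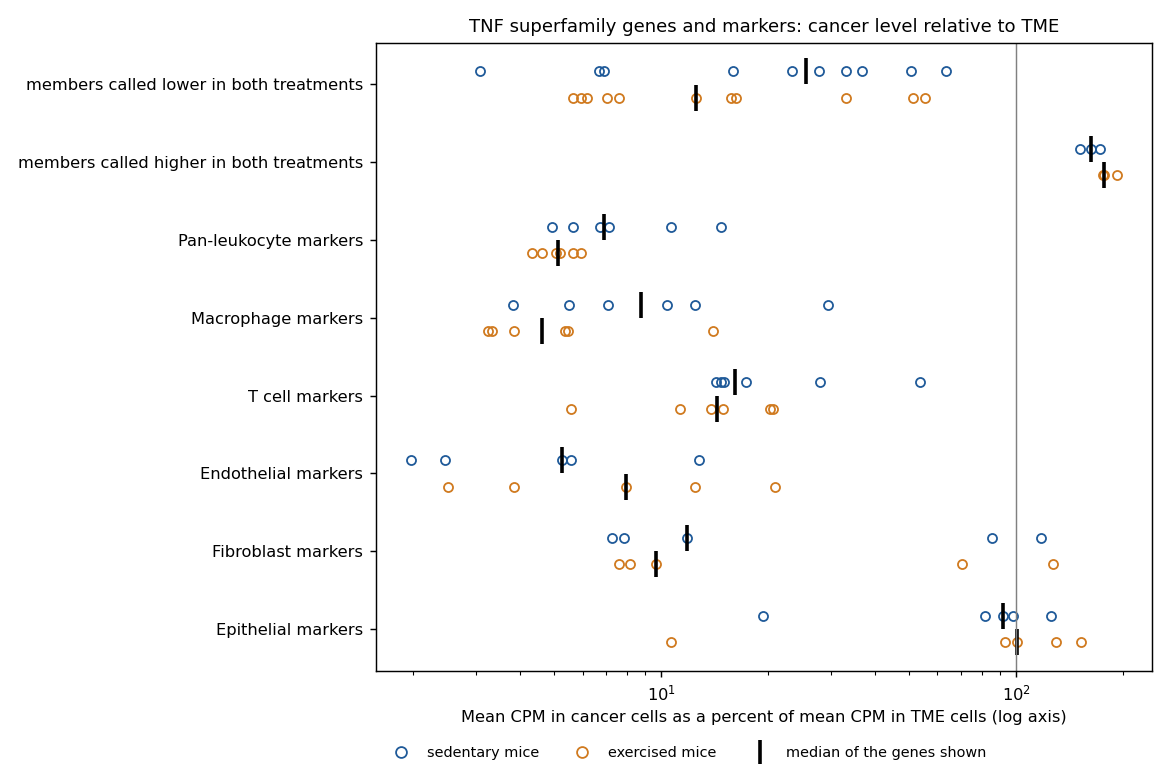
Mean CPM in cancer cells as a percent of that in TME cells (log axis), 1 point per gene and treatment, for the members lower or higher in both treatments and for 6 marker lists; black ticks are medians. Tnfsf14 in sedentary mice is at 0 and lies off the axis; the 3 members above 100% range from 152% to 193%.

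Levels of different genes were compared per kilobase of exon. In every group the order was led by Tnfrsf1a, Tnfrsf21 (a death domain receptor, DR6) and Tnfrsf12a. In sedentary cancer cells they had 76.0 ± 7.34, 54.1 ± 12.7 and 47.5 ± 13.1 CPM per kb (SD, n = 8), followed by Tnfrsf10b at 15.1 ± 1.79 and Tnfrsf23 at 9.65 ± 1.06. The spreads of Tnfrsf21 and Tnfrsf12a overlap, and those of the other neighbours in this order do not. In sedentary TME cells the first 3 had 93.1 ± 7.27, 52.8 ± 10.4 and 47.6 ± 8.93 CPM per kb (n = 4), followed by Tnfrsf10b at 9.95 ± 1.19 and Tnfrsf1b at 8.54 ± 2.41, whose spreads overlap. In exercised TME cells Tnfrsf1b came before Tnfrsf10b, at 17.2 ± 10.1 and 9.51 ± 0.916 CPM per kb, with spreads that overlap. Tnfsf9 and Tnfsf10 were the most abundant ligands in sedentary cancer cells, at 5.20 ± 0.784 and 3.32 ± 0.729 CPM per kb. Tnfrsf21 did not pass between the sorts (0.03 ± 0.16 and -0.13 ± 0.16). Tnfsf13os did not pass either (-0.54 ± 0.46 and -0.51 ± 0.46), and it shares 221 exon bases with Tnfsf13 on the opposite strand, so with no strand setting stated reads of both cannot be told apart. Tnfsf15 had 4, 3, 4 and 19 counts in all in sedentary cancer, exercised cancer, sedentary TME and exercised TME libraries and was not tested.

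Known ligand and receptor pairs were read from the same calls. The 18 pairs hold 12 ligands, several of them in more than 1 pair. In 8 pairs the ligand was higher in TME cells in both treatments, and these are 5 ligands, Tnfsf8, Tnfsf12, Tnfsf13b, Tnfsf14 and Tnf (13.2% of all genes were lower in cancer cells in both). Of these genes Tnfsf8, Tnfsf12, Tnfsf13b and Tnfsf14, and the receptor Tnfrsf13b, were tested through TME cells, as given above. The share of all genes is therefore no fair measure for them. In 3 of the 8 pairs the receptor was higher in TME cells too, namely Tnfsf13b with Tnfrsf13b, Tnfsf14 with Tnfrsf14 and Tnf with Tnfrsf1b. With the replicate block Tnfsf14 and Tnfrsf14 lost the call in exercised mice, and Tnfsf8 lost it in both treatments. The pairs of Tnfsf14 and Tnfsf8 then leave these counts. For Tnfsf12 the ligand was higher in TME cells and its receptor Tnfrsf12a was not called. For Tnfsf10 the ligand was not called, and its receptor Tnfrsf10b was higher in cancer cells. For Tnfsf9 and Tnfsf11 the ligand was not called and the receptors Tnfrsf9, Tnfrsf11a and Tnfrsf11b were higher in TME cells.

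Exercise in cancer cells was tested on 15 libraries and 21 members, and 0 passed, as did 0% of all 15096 genes by edgeR. At an unadjusted p under 0.05 there were 4 members, against 12.6% of genes, 1 above 0 (5.92%) and 3 below (6.67%). DESeq2 and limma voom called no member either, and of all genes they called 70 and 101 higher and 91 and 96 lower. Tnfsf18, the ligand of GITR, had 0 to 2.72 CPM (median 1.18) in sedentary and 0.119 to 0.891 (median 0.447) in exercised libraries. All 7 exercised libraries lay below the sedentary mean while the ranges overlapped, and the difference was -1.51 ± 0.57 log2 (edgeR adjusted p = 0.299). Its receptor Tnfrsf18 stood at -0.25 ± 0.25. Tnfrsf11a (RANK) had 0.968 to 2.37 and 1.67 to 2.58 CPM, and all 7 exercised libraries lay above the sedentary mean (0.55 ± 0.21, adjusted p = 0.311). Tnfrsf13c, the BAFF receptor gene, stood at -0.37 ± 0.16 (adjusted p = 0.354). Tnfsf9 had 5.21 to 8.63 CPM (median 6.66) in sedentary and 3.67 to 6.57 (median 5.92) in exercised libraries and stood at -0.31 ± 0.14 (adjusted p = 0.373), with its receptor Tnfrsf9 at 0.13 ± 0.18. The receptor genes that were higher in cancer cells stood at 0.12 ± 0.07 (Tnfrsf10b), 0.14 ± 0.12 (Tnfrsf22) and -0.06 ± 0.09 (Tnfrsf23). No member had groups that did not overlap, against 0.298% of genes higher and 0.053% lower.

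Exercise in TME cells was tested on 8 libraries and 28 members, and 0 passed, as did 0% of all 16273 genes by edgeR. At an unadjusted p under 0.05 there were 4 members, against 8.44% of genes (4.93% above 0 and 3.51% below), and all 4 stood above 0, namely Tnfsf13b, Tnfsf14, Tnfsf10 and Tnfrsf11a. DESeq2 and limma voom called no member, and of all genes 26 higher and 14 lower by DESeq2 and 0 by limma voom. Tnfsf13b (BAFF) had 1.24 to 2.34 CPM in sedentary and 2.48 to 7.14 in exercised libraries. These groups did not overlap, which held for 1 member higher and 1 lower, against 1.95% and 1.79% of genes. The difference was 1.34 ± 0.39 (adjusted p = 0.586), and 0.64 without exercised libraries 8 and 9. Its receptors stood at 1.01 ± 0.59 (Tnfrsf13b) and 0.06 ± 0.26 (Tnfrsf13c). Tnfsf14 (LIGHT), at 0.187 to 0.883 CPM in sedentary and 0.773 to 2.59 in exercised libraries, stood at 1.53 ± 0.54 (adjusted p = 0.586), and at 0.86 without libraries 8 and 9. Its receptor Tnfrsf14 stood at 0.47 ± 0.45. Tnfrsf11a (RANK) ran from 4.42 to 8.44 CPM in sedentary and from 4.34 to 25.7 in exercised libraries. Its difference of 1.10 ± 0.48 (adjusted p = 0.586) rests on exercised libraries 8 and 9, since it was -0.03 without them.

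Tnfsf10 (TRAIL) in TME cells kept its value without those libraries. Sedentary libraries had 11.9, 15.5, 21.4 and 14.1 CPM, and exercised libraries had 22.9, 22.1, 23 and 21.1. The exercised libraries lay within 2 CPM of each other, and sedentary library 9 reached their lower edge. The difference was 0.48 ± 0.18 (adjusted p = 0.586) and 0.48 without exercised libraries 8 and 9, and 0.32 without sedentary libraries 4 and 6. Its receptor Tnfrsf10b stood at -0.08 ± 0.12. Tnfrsf1a was the member with lower values in all exercised than in all sedentary TME libraries, 209 to 228 against 230 to 269 CPM, and stood at -0.16 ± 0.10 (adjusted p = 0.638).

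**Figure D4:**
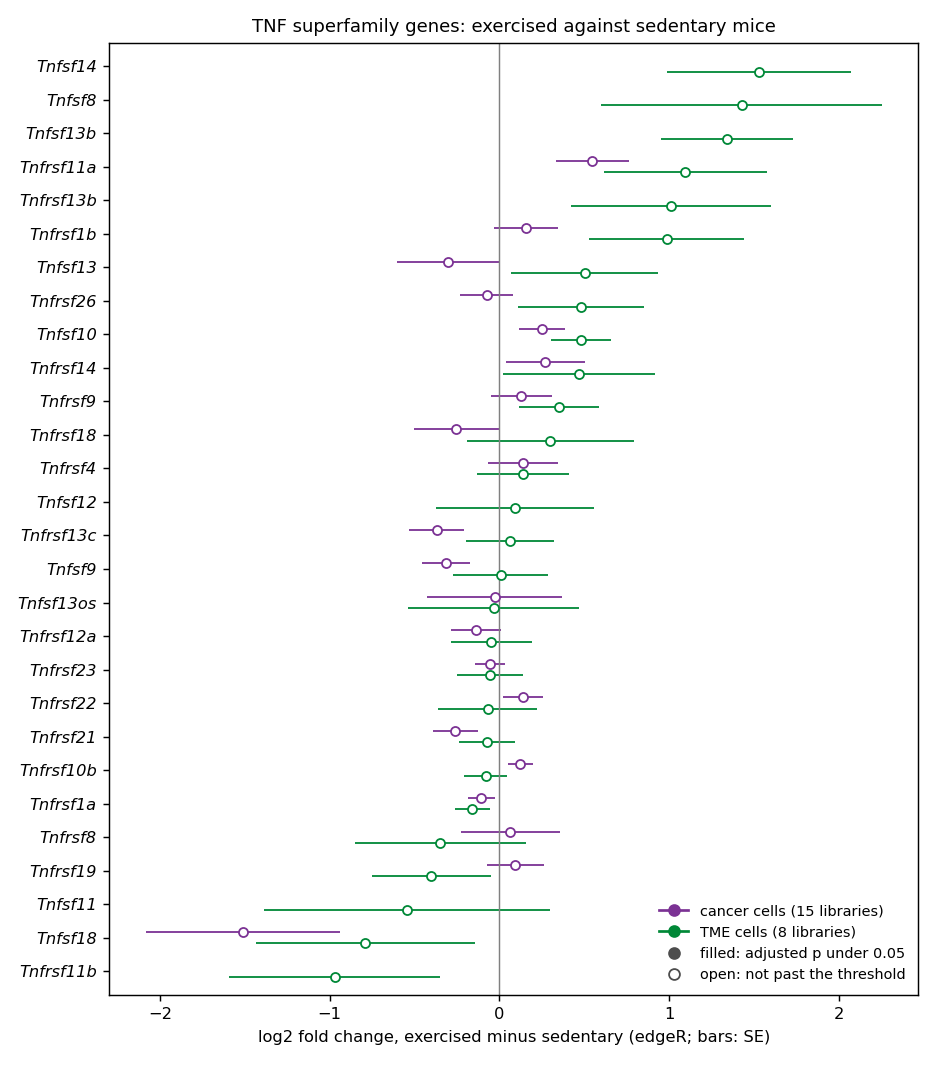
Log2 fold change of exercised minus sedentary mice in cancer cells (purple, 15 libraries) and TME cells (green, 8 libraries) for the members tested in either, with bars for the standard error. Open points show that no member passed the threshold, and the ligands Tnfsf14, Tnfsf8 and Tnfsf13b have the highest TME values.

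The exercise effect in TME cells minus that in cancer cells was tested on all 23 libraries. Of 29 members 0 passed, as did 0% of 17503 genes by edgeR. At an unadjusted p under 0.05 there was 1 member, below 0, against 7.52% of genes (4.18% above 0 and 3.34% below), and DESeq2 and limma voom called none. The 1 member was Tnfsf14, with a fitted difference of -2.83 ± 1.29 (adjusted p = 0.643). That fit sets 0 counts in all sedentary cancer libraries against 17 counts over the exercised ones, so its value depends on the small count the model adds, and limma voom gave 0.27. Its receptor Tnfrsf14 stood at 0.19 ± 0.46. For Tnfsf13b the difference was 1.09 ± 0.70 and for Tnfsf10 it was 0.20 ± 0.23 (adjusted p = 0.756 and 0.879). This contrast is the same as that of the compartment differences between treatments, so no member's compartment difference was shown to change with exercise.

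Outside the members, genes of the pathway were read from 4 lists chosen by function, beside the 40.8% and 36.9% of all genes called in sedentary and exercised mice. Of 7 superfamily ligands with other symbols 3 had enough counts, and 2 were lower and 1 higher in cancer cells in both treatments. Tnf itself differed by -2.33 ± 0.39 and -3.97 ± 0.41 (adjusted p = 3.52e-05 and 3.34e-08), the lymphotoxin beta gene Ltb by -3.33 ± 0.84 and -4.15 ± 0.89, and Eda, the ligand ectodysplasin of epithelial development, by 0.61 ± 0.17 and 1.02 ± 0.18. Eda lost the first call without sedentary TME libraries 4 and 6 (0.58). Of 8 receptors with other symbols 7 were tested, and 1 was lower in sedentary mice, Cd40 (-3.96 ± 0.49). In exercised mice 3 were lower, Cd40 (-4.13 ± 0.47), the death receptor Fas (-1.05 ± 0.32) and Relt (-1.08 ± 0.19), and Fas lost its call without libraries 8 and 9 (-0.67) and with the replicate block (-0.87). Of 26 adaptors and regulators 5 were higher and 7 lower in sedentary mice, and 5 were higher and 8 lower in exercised mice. These are shares of 46.2% and 50%, beside 40.8% and 36.9% of all genes. Over cancer libraries alone, 2 of the 3 ligands, 5 of the 7 receptors and 25 of the 26 adaptors and regulators passed the filter. The remaining genes of these lists were tested through TME cells, so for them the shares of all genes are no fair measure. Ripk3, the kinase of necroptosis, was lower in cancer cells, at -4.27 ± 0.52 and -4.64 ± 0.51, with 0 to 1.07 CPM in cancer libraries and 4.77 to 21.5 in TME libraries. Ripk1, the kinase at the TNF receptor, was higher by 0.51 ± 0.14 and 0.47 ± 0.14, Tank by 0.62 ± 0.11 and 0.47 ± 0.11, and Tradd, the adaptor of Tnfrsf1a, was lower (-0.62 ± 0.12 and -0.65 ± 0.12). Ripk1 lost the first call without sedentary TME library 6 (0.39) and the second without exercised TME library 7 (0.22) or 10 (0.36). Of 11 NF-kB subunits and inhibitors 2 were higher and 4 lower in sedentary mice and 1 was higher and 4 lower in exercised mice (54.5% and 45.5%), among them the inhibitor and target gene Nfkbia (-1.22 ± 0.35 and -1.01 ± 0.36) and the subunit Rela (-0.37 ± 0.11 and -0.56 ± 0.11). Both lost the first call without sedentary TME libraries 4 and 6, and Nfkbia lost the second in 8 alternatives, 6 of which leave out 1 library.

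Under exercise 0 genes of these lists passed in either compartment. In TME cells Tnf had 1.03 to 6.21 CPM in sedentary and 6.62 to 12.1 in exercised libraries, which did not overlap, and stood at 1.34 ± 0.42 (adjusted p = 0.586), while in cancer cells it stood at -0.32 ± 0.40. The difference between these effects was 1.65 ± 0.59 (adjusted p = 0.562). Without exercised TME libraries 8 and 9 Tnf stood at 1.01 in TME cells. Cd40 stood at 1.18 ± 0.41 and Ripk3 at 1.20 ± 0.43 in TME cells (adjusted p = 0.586 each), and at 0.48 and 0.04 without those libraries, whose leukocyte markers were highest. The part of leukocyte content in these values was not tested.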

How the data were processed

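The authors deposited raw read counts per gene symbol for 23 libraries. The submitters' processing notes name STAR, featureCounts and mm10; the sources used here give no versions, annotation or strand setting. Counts were tested in R 4.3.3 with the robust quasi-likelihood test of edgeR 4.0.16 after filterByExpr and TMM scaling, two-sided, with Benjamini-Hochberg adjustment over all genes and a threshold of 0.05. Exercise was fitted on the 15 cancer or 8 TME libraries, the other contrasts on all 23 in 4 groups. Errors of log2 fold changes are standard errors from edgeR, and CPM is TMM-scaled; totals of 15924340 to 37388479 limit the precision of low genes. Lengths, coordinates and exons are from GENCODE M21. Deviations from the group means of same-numbered cancer and TME libraries correlated at 0.144 to 0.243 in the 3 exercised pairs. In the 4 sedentary pairs they correlated at -0.0601 to 0.0499. No label says that same-numbered libraries are paired, and the correlations do not show it, so the block is given as an alternative only. No label ties a library to its own mouse, and p-values then reflect only how far libraries differ, which may be technical.

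Values in full are given for members called in both treatments with the largest mean change (up to 8 a direction), members with an unadjusted p under 0.05 in an exercise contrast, and the receptors of described ligands. Tnfrsf1a, Ripk3 and the other list genes named were picked with their values in view. The members and lists were chosen with earlier results of these data known. Alternatives were DESeq2 1.42.0, limma 3.58.1 voom, RLE scaling, other filters, a replicate block and left-out libraries. The fits were tested on simulated data.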

Additional observations from a re-analysis of the deposited data

Results flagged for a closer look

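Of 115 combinations of a member and a group, on log2(CPM + 1), 6 had 1 library apart from the others by Dixon's ratio of its gap to the range of the group. Chance gives about 1 in 20, or 5.75. Exercised cancer library 8 was lowest for Tnfrsf12a (68.0 CPM, next 82.7; ratio 0.60) and highest for Tnfrsf1b (14.1 CPM, next 10.4; ratio 0.699), and it also had the highest pan-leukocyte markers of the cancer libraries, 78.8 CPM. Sedentary cancer library 10 was highest for Tnfrsf13b (0.830 CPM on 18 counts, next 0.297; ratio 0.57) and lowest for Tnfrsf26 (5.39 CPM, next 8.04; ratio 0.55). Sedentary cancer library 4 was highest for Tnfsf11 (0.766 CPM on 15 counts, next 0.165; ratio 0.732), and without it Tnfsf11 was called lower in sedentary cancer cells (-4.20, edgeR adjusted p = 0.00188). Sedentary TME library 10 was highest for Tnfrsf1a (269 CPM, next 235; ratio 0.87).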

How the results depend on the processing

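Of 1169 values under alternatives for 41 results of members named in the text, 1121 kept their direction and their side of the threshold, 46 lost the call and 2 reversed; of 941 for other pathway genes, 921 kept both and 20 lost the call. The reversed 2 are Tnfrsf11a under exercise in TME cells without exercised libraries 8 and 9 (-0.0335) and Tnfsf14 in the difference of exercise effects by limma voom (0.27). Members not called by the edgeR test gained 24 calls, 14 of them Tnfrsf1a, 5 Tnfsf11, 3 Tnfrsf26 and 2 Tnfrsf17. The number of members lower in cancer cells of exercised mice, 13, was 7 with the replicate block and 8 without exercised TME libraries 8 and 9; with the block the calls of Tnfrsf9, Tnfrsf13c, Tnfrsf14, Tnfrsf19, Tnfsf14, Tnfsf4 and Tnfsf8 were lost in exercised mice and those of Tnfrsf9 and Tnfsf8 in sedentary mice, and it changed no other member's call. No libraries are shown to be paired by their numbers. Correlations were 0.144 to 0.243 in 3 pairs of exercised sorts and -0.0601 to 0.0499 in 4 pairs of sedentary sorts. They were -0.0662 to 0.0934 in 5 pairs of cancer libraries across treatments, and 0.0105 and 0.235 in 2 such pairs of TME libraries. Leaving out each library in turn gave 3 to 4 members higher and 11 to 12 lower in sedentary mice, 3 to 4 higher and 12 to 14 lower in exercised mice, and 0 in each contrast of exercise; leaving libraries out means fewer samples, and the cause of other losses was not tested. For all genes, exercise in cancer cells gave 70 higher and 91 lower by DESeq2, 101 and 96 by limma voom, 18 and 10 without a filter, 25 and 18 without sedentary cancer library 4, and 0 and 1 with all libraries in 1 fit. Exercise in TME cells gave 26 and 14 by DESeq2 and 4 and 2 without a filter, and the difference of effects 23 and 17 by limma voom, 4 and 10 with the block, 1 and 1 by DESeq2, and 49 and 3 without exercised TME library 7. Genes higher in cancer cells of sedentary mice were 1881 in place of 3684 without sedentary TME libraries 4 and 6. In exercised mice the block gave 1991 higher and 1526 lower in place of 3420 and 3036, and 2254 were higher without exercised TME library 7. RLE and DESeq2 scaling moved the median of all genes by at most 0.06 log2. Depth limits Tnfrsf17, Tnfsf15, Tnfsf4, Tnfsf11 and Tnfsf14, which have few counts in cancer cells.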
